A study of Mus musculus with 27 samples.

Results

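The genes described here are 10 components of the N6-methyladenosine (m6A) system of mRNA in RAW264.7 cells. The rule names them by gene symbol and uses no measured value, though it was written with earlier results of these data known. They comprise 5 subunits of the writer complex (Mettl3, Mettl14, Wtap, Zc3h13 and Rbm15), the eraser Alkbh5 and 4 readers (Ythdf1, Ythdf2, Ythdf3 and Ythdc1). All 10 were found among the 55483 gene rows of the deposited count table, and all 10 passed the filter on low counts in each of 12 comparisons. RAW264.7 is a mouse macrophage line, so the groups model one cultured line and not primary macrophages. Cells were harvested 6 h after treatment. The control group received the vehicle DMSO. The LPS group received lipopolysaccharide (LPS), a bacterial cell wall component that activates macrophages, at 1 µg/ml together with DMSO. The LPS+TM7nox group received the same LPS with TM7nox at 10 µM, a tanshinone mimic from a set designed to keep HuR from binding RNA. None of the 27 libraries comes from cells given TM7nox without LPS, so its effect alone cannot be told apart from its effect on the LPS response. Each treatment was sampled as total RNA (4 libraries), as RNA immunoprecipitated with an antibody to the RNA-binding protein HuR (RIP, 4 libraries) and as RNA recovered with control IgG (1 library, replicate 3). The labels number the replicates without saying whether they were separate cultures, so p-values measure the spread between these samples, which may be technical.

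m6A is placed on nascent mRNA by a nuclear complex in which METTL3 is the catalytic subunit and METTL14 its RNA-binding partner. WTAP holds that pair in nuclear speckles, RBM15 binds RNA and guides the complex to its sites, and ZC3H13 helps keep it in the nucleus. ALKBH5 is a demethylase that removes the mark. Proteins with a YTH domain recognise it: YTHDC1 in the nucleus, and YTHDF1, YTHDF2 and YTHDF3 in the cytoplasm, where YTHDF2 is best known for bringing marked mRNA to deadenylation and decay. HuR, the product of Elavl1, binds U-rich and AU-rich stretches, mostly in 3′ UTRs, and is known for stabilising the mRNAs it binds. The comparisons ask which m6A factor mRNAs HuR retained, and how their levels moved with LPS and TM7nox.

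Total counts lay between 2728534 and 28285856 in the 12 RNA libraries, 19816312 and 41449233 in the 12 RIP libraries and 8873091 and 24513902 in the 3 IgG libraries. DMSO replicate 1 was the shallowest RNA library. Levels are counts scaled to library size (CPM) on one TMM scale over all 27 libraries. The lowest count of a member in any RNA or RIP library was 51 (Mettl3, LPS+TM7nox RIP). The summed RNA level of 7 macrophage markers was 4511 to 5775 CPM in DMSO, 3245 to 4929 CPM in LPS and 2399 to 4863 CPM in LPS+TM7nox. Fibroblast, epithelial, T cell and B cell markers summed to at most 0.341 CPM per list, and the neutrophil pair S100a8 and Ly6g to at most 0.101 CPM in DMSO, 1.57 to 3.25 CPM in LPS and at most 0.490 CPM in LPS+TM7nox. Their part in the treatment results was not tested. In bulk RNA, fewer cells expressing a gene and less of its RNA per cell cannot be told apart. The bait mRNA Elavl1 stood 5.00, 5.07 and 5.38 log2 units higher in RIP than in RNA in DMSO, LPS and LPS+TM7nox.

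HuR is known to bind U-rich RNA, so the 30-base window with the most uracils was taken from the annotated 3′ UTR of each member. Those of 7 members are printed as the genome's sense strand, 5′ to 3′, with T for U. Capitals mark runs of 3 or more T. The first 4 belong to the members with the highest RIP over RNA, and the last 3 to Ythdf1, which was near the typical gene, and to the catalytic pair, which was below it.
Wtap: TTTTTTTTTTTTTTTTTTTTTTTTTTTTTT
Alkbh5: TTTTTTTTTTTTTTTTTTTTTTTTTTTTTT
Ythdf2: gTTTTTTTTTTTgTTTTTTTTTTTTTTTTT
Rbm15: taTTTTTTaatataTTTaTTTTatgtatat
Ythdf1: TTTcactgtgtgtctaTTTTTTTTTTctgt
Mettl14: tattgttctgggtaactccTTTTTTaTTTT
Mettl3: ataaaagTTTgtattataattggaaTTTct
In the order printed, these lie on GRCm39 at chr17:13186202-13186231 (minus strand), chr11:60448683-60448712 (plus), chr4:131913908-131913937 (minus), chr3:107230870-107230899 (minus), chr2:180546554-180546583 (minus), chr3:123161982-123162011 (minus) and chr14:52532307-52532336 (minus). The Wtap and Alkbh5 windows were uracil throughout, 30 of 30, inside unbroken runs of 38 and 41 bases. The Ythdf2 window held 28 and the longest run in that 3′ UTR was 26. Ythdc1 reached 21 uracils, Rbm15, Ythdf1 and Ythdf3 20 each, Zc3h13 19, Mettl14 18 and Mettl3 14. The median over 10990 coding genes was 19, so Wtap and Alkbh5 (percentile 99.6) and Ythdf2 (98.1) lay near the top, and Mettl3 (9.24) near the bottom. Mettl3 also had the shortest 3′ UTR of the members, 141 bases, and the longest was that of Rbm15, 4494 bases.

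By the size of RIP over RNA, the m6A factors fell into 3 sets in every treatment. The mRNAs of the scaffold Wtap, the eraser Alkbh5, the RNA-binding adaptor Rbm15 and the decay-promoting reader Ythdf2 were 12.3-fold to 35.3-fold higher in RIP than in RNA. Ythdc1 was 1.78-fold to 2.53-fold higher, and Ythdf1 and Ythdf3 had ratios of 1.18-fold to 1.51-fold. Ythdf1 in DMSO and Ythdf3 in LPS were not called, and neither gene was called against control IgG. The catalytic subunit Mettl3, its partner Mettl14 and Zc3h13 were lower in RIP than in RNA. By edgeR's quasi-likelihood test at an FDR under 0.05, 6 members were higher and 3 lower in DMSO, where 37.0% of 14311 genes tested were called higher and 33.4% lower (70.4% in all). The counts were 6 and 3 in LPS (32.9% and 30.8% of all genes, 63.7% together) and 7 and 3 in LPS+TM7nox (35.2% and 34.8%, 69.9% together). The median log2 ratio of the members was 0.77, 0.60 and 0.97 in the 3 treatments, beside 0.04, -0.06 and -0.09 for all genes tested. The ratio is relative to the typical gene, which TMM places near 0, and has no absolute scale.

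Among the writer subunits, Wtap was recovered most. Its level in RNA was 52.2, 54.8, 53.9 and 58.5 CPM in DMSO replicates 1 to 4, and in RIP it was 1289.7, 1094, 1309 and 1099 CPM. Each RIP library was thus far above each RNA library, and the log2 ratio was 4.57 (SE 0.180, FDR 1.49e-16), rank 401 from the highest of 14311 genes. In LPS the log2 ratio was 4.98 (SE 0.183, FDR 5.72e-17), and in LPS+TM7nox it was 5.14 (SE 0.184, FDR 2.62e-17). Rbm15 stood at 52.9, 62.9, 67.6 and 65.0 CPM in DMSO RNA and at 717, 799, 813 and 744 CPM in DMSO RIP. Its groups did not overlap either, and its log2 ratio was nearly level across treatments, at 3.75 (SE 0.177), 3.62 (SE 0.176) and 3.72 (SE 0.176).

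The other 3 writer subunits lay on the opposite side. Zc3h13 had 77.5, 56.2, 57.5 and 65.2 CPM in DMSO RNA and 26.3, 27.1, 35.5 and 37.9 CPM in RIP, with every RIP library below every RNA library. Its log2 ratio was -0.88 (SE 0.151, FDR 1.46e-05) in DMSO, -1.06 (SE 0.152, FDR 1.44e-06) in LPS and -0.75 (SE 0.151, FDR 0.000107) in LPS+TM7nox. Mettl14 had 19.04, 16.2, 15.4 and 17.0 CPM in DMSO RNA and 7.23, 7.64, 8.42 and 7.58 CPM in RIP, again without overlap. Its log2 ratios were -0.99 (SE 0.158, FDR 4.51e-06), -1.25 (SE 0.161, FDR 2.68e-07) and -1.004 (SE 0.159, FDR 4.51e-06). Mettl3, the methyltransferase itself, stood at 11.6, 8.62, 8.45 and 8.13 CPM in DMSO RNA and 5.18, 7.24, 5.36 and 4.48 CPM in RIP. Its log2 ratios were -0.56 (SE 0.172, FDR 0.00529), -0.64 (SE 0.173, FDR 0.00235) and -0.998 (SE 0.174, FDR 1.71e-05), and in replicates 1 and 2 alone its call was lost in DMSO (FDR 0.156) and LPS (FDR 0.200).

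**Figure D1:**
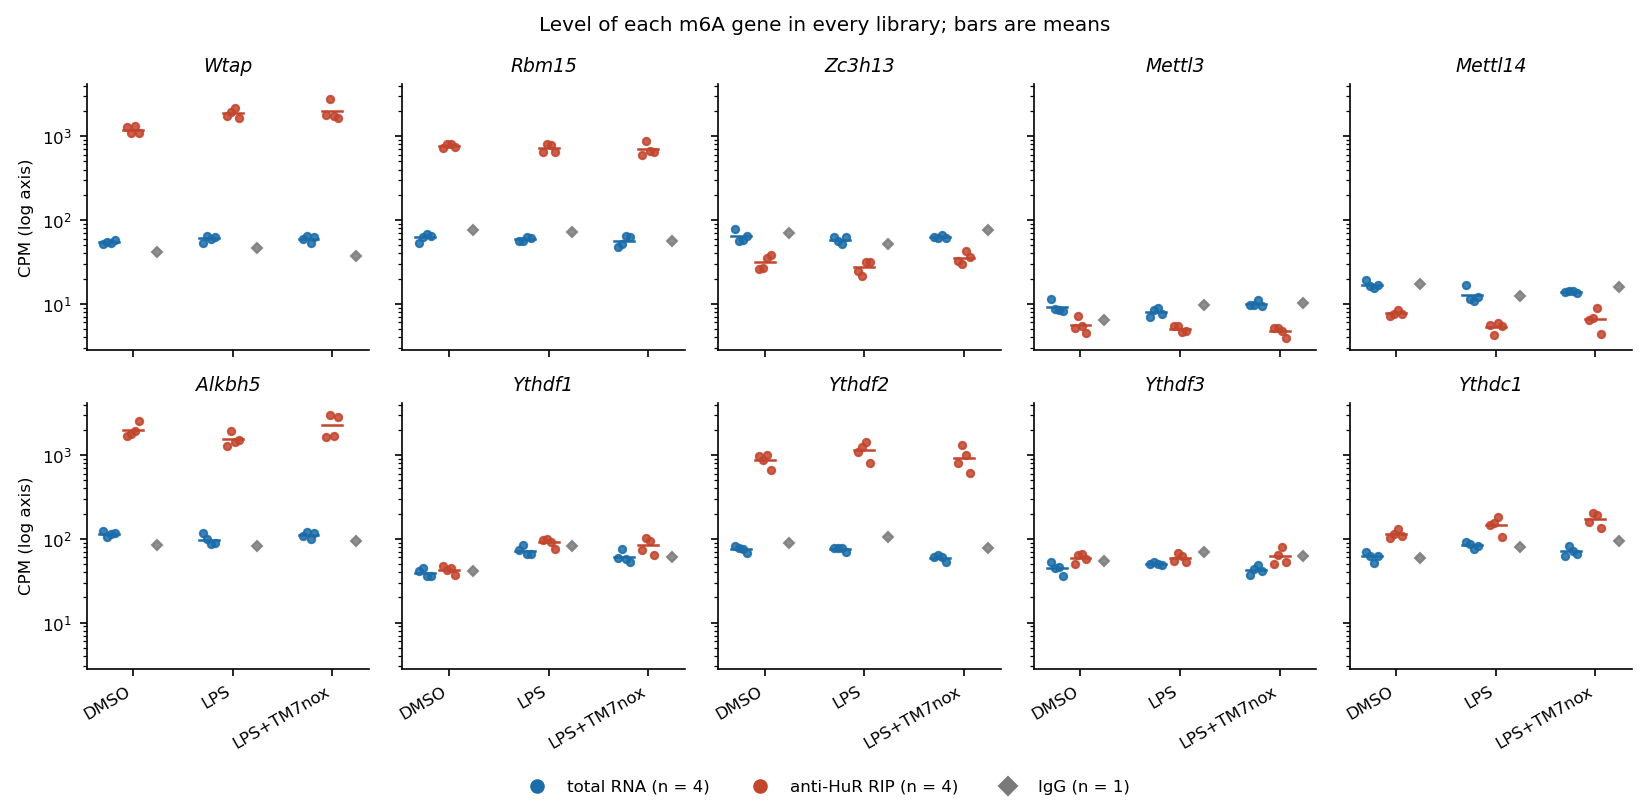
Level of each member in every library, in CPM on a log axis, by treatment: blue points are total RNA, red points anti-HuR RIP and grey diamonds the single IgG library, and bars are means of 4. Red points lie more than 10-fold above blue for Wtap, Rbm15, Alkbh5 and Ythdf2 on average and below blue for Zc3h13, Mettl3 and Mettl14. The grey diamonds lie at 0.617 to 1.45 times the mean of the blue points over all 10 members.

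The eraser Alkbh5 stood in DMSO RNA at 124, 105, 115 and 116 CPM and reached 1661, 1795, 1928 and 2519 CPM in DMSO RIP. The groups did not overlap, and the log2 ratio was 4.24 (SE 0.237, FDR 4.96e-14). It was 4.01 (SE 0.234, FDR 1.24e-13) in LPS and 4.48 (SE 0.239, FDR 1.65e-14) in LPS+TM7nox. In LPS+TM7nox its RIP libraries spread widely, from 1637 to 2972 CPM, with replicates 1 and 3 low and replicates 2 and 4 high.

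The readers divided by paralogue. Ythdf2 had 82.0, 78.2, 74.9 and 68.4 CPM in DMSO RNA and 965, 869.6, 993 and 659 CPM in DMSO RIP, with no overlap. Its log2 ratios were 3.65 (SE 0.191, FDR 1.46e-14), 3.93 (SE 0.193, FDR 5.28e-15) and 4.04 (SE 0.194, FDR 2.19e-15) in DMSO, LPS and LPS+TM7nox. Ythdf1 had 41.3, 44.7, 35.5 and 36.4 CPM in DMSO RNA and 47.2, 41.9, 44.9 and 37.1 CPM in RIP, so the groups overlapped. Its log2 ratio of 0.24 in DMSO was not called (FDR 0.149), while with the replicate block the FDR was 0.0408, with a block by treatment and number 0.0533, with DESeq2 0.0262 and with RLE scaling 0.0334. The ratio was 0.36 (SE 0.147, FDR 0.0338) in LPS and 0.52 (SE 0.148, FDR 0.00293) in LPS+TM7nox. The LPS call was lost when any of 5 single libraries was left out, namely RNA LPS replicates 1, 3 or 4 and RIP LPS replicates 1 or 2 (FDR 0.0697 to 0.109). Without the filter on low counts neither the LPS nor the LPS+TM7nox call held (FDR 0.371 and 0.207). The LPS call was also lost in replicates 1 and 2 alone (FDR 0.311) and in replicates 3 and 4 alone (FDR 0.0553), and the LPS+TM7nox call in replicates 1 and 2 alone (FDR 0.166).

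Ythdf3 had 53.5, 44.5, 46.1 and 35.9 CPM in DMSO RNA and 49.4, 64.1, 66.4 and 57.4 CPM in DMSO RIP. These ranges overlapped because RNA replicate 1 was high and RIP replicate 1 low, and the log2 ratio was 0.54 (SE 0.143, FDR 0.00175). In LPS it was 0.26 (SE 0.142, FDR 0.108), not called, although the RIP libraries all lay above the RNA libraries. The LPS ratio was called with the replicate block (FDR 0.0468), with DESeq2 (0.00975) and with RLE scaling (0.0153). In LPS+TM7nox the ratio was 0.60 (SE 0.143, FDR 0.000652). The calls in DMSO and LPS+TM7nox were lost without the filter on low counts (FDR 0.316 and 0.0959) and in replicates 1 and 2 alone (FDR 0.237 and 0.0723). The nuclear reader Ythdc1 had 69.8, 61.8, 51.8 and 62.9 CPM in DMSO RNA and 101, 115, 129.6 and 107 CPM in RIP, without overlap. Its log2 ratios were 1.01 (SE 0.147, FDR 1.31e-06), 0.83 (SE 0.146, FDR 2.22e-05) and 1.34 (SE 0.148, FDR 1.47e-08). RLE scaling raised the median RIP over RNA of all genes by 0.16, 0.18 and 0.22 log2 units in the 3 treatments. Ratios as small as those of Ythdf1 and Ythdf3 are therefore read relative to that shift, and no member's RIP over RNA changed sign with it.

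**Figure D2:**
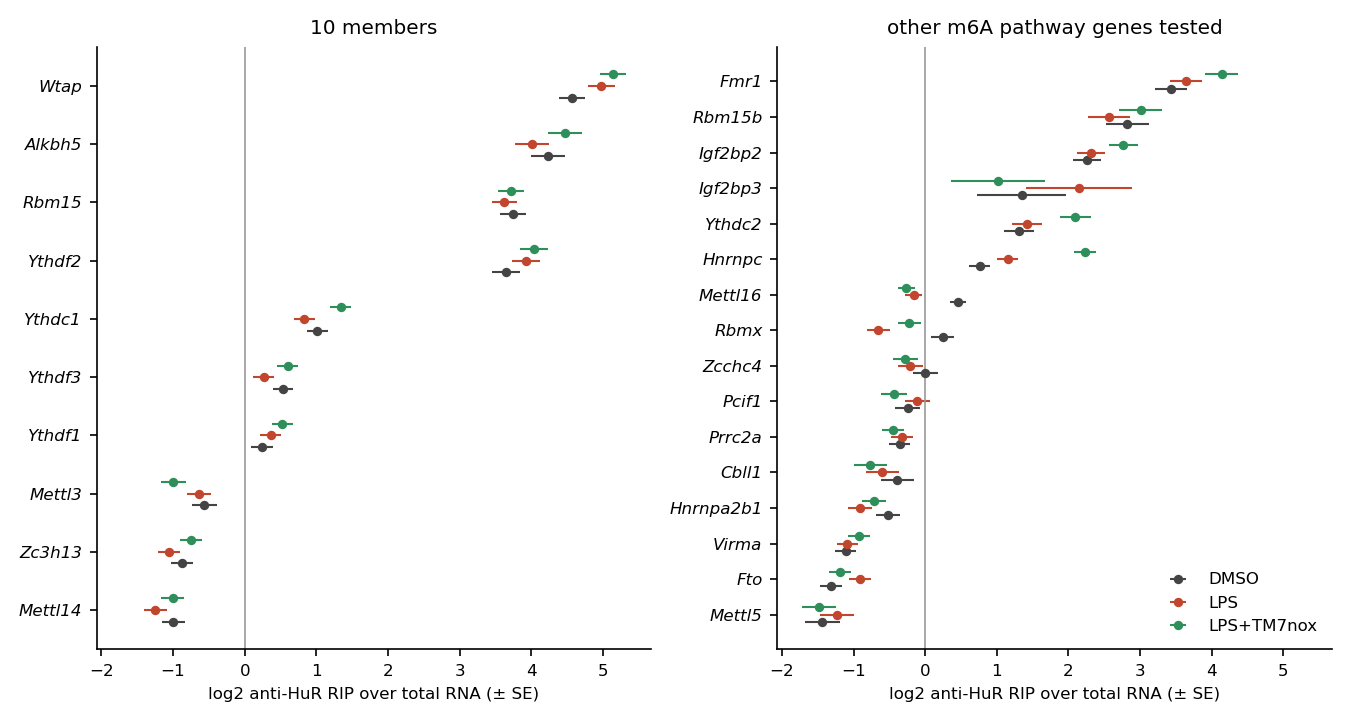
Log2 ratio of anti-HuR RIP to total RNA, with its standard error, for the 10 members (left) and 16 other m6A pathway genes (right), in DMSO (black), LPS (red) and LPS+TM7nox (green). Wtap, Alkbh5, Rbm15 and Ythdf2 lie between 3.62 and 5.14 in all 3 treatments, and Mettl3, Zc3h13 and Mettl14 lie below 0.

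With control IgG the mRNAs of Wtap, Alkbh5 and Ythdf2 stayed far below their anti-HuR levels. In each treatment, Wtap and Alkbh5 lay below the range of their 4 RNA libraries and Ythdf2 above it. The IgG levels of Wtap were 41.1, 46.9 and 36.8 CPM in DMSO, LPS and LPS+TM7nox, those of Alkbh5 83.2, 82.4 and 93.8 CPM and those of Ythdf2 89.3, 106 and 78.0 CPM. Over the 10 members and 3 treatments, the IgG level was 0.617 to 1.45 times the mean of the RNA libraries. It lay inside the range of the 4 RNA libraries in 11 of 30 cases, above it in 12 and below it in 7. The same count was not made over all genes. A single IgG library for each treatment leaves nothing to test inside one treatment, so the antibodies were compared in one edgeR fit of 15 libraries that also held a treatment term. There 5 members were higher and 3 lower with anti-HuR, where 33.8% of 14973 genes were called higher and 34.2% lower (68.1% in all). The log2 differences were 5.29 (SE 0.263, FDR 8.87e-12) for Wtap, 4.47 (SE 0.309) for Alkbh5, 3.42 (SE 0.198) for Rbm15 and 3.42 (SE 0.243) for Ythdf2. Ythdc1 was higher by 0.89 (SE 0.158). Mettl14, Zc3h13 and Mettl3 had log2 differences of -1.23, -1.06 and -0.77, and of these only the libraries of Mettl3 overlapped between the antibodies. Ythdf1 (0.20, FDR 0.235) and Ythdf3 (-0.04, FDR 0.811) were not called. DESeq2 called Ythdf1 (FDR 0.0356), and the sign of Ythdf3 turned to 0.08 with RLE scaling, which moved the median of all genes by 0.13. The RIP libraries also enter RIP over RNA, so these comparisons are not independent. With replicate 3 alone, the only number that has IgG, the same numbers of members were called.

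The 3 members with the most uracils in their window, Wtap, Alkbh5 and Ythdf2, were among the 4 with the highest RIP over RNA. Ythdc1, the pair Ythdf1 and Ythdf3, Zc3h13 and Mettl14 also fell in the order of their windows, while Rbm15 and Mettl3 did not. Rbm15, with 20 uracils, was the other of those 4, and Mettl3, with the fewest, had a higher ratio than Mettl14 and Zc3h13 in DMSO and LPS. In LPS+TM7nox Mettl3 lay below Zc3h13 and level with Mettl14. In DMSO, the 204 coding genes with 28 to 30 uracils in their richest window had a median log2 RIP over RNA of 3.04 (quartiles 1.26 and 3.95), which is the class of Wtap, Alkbh5 and Ythdf2. The 2941 genes with 19 to 21 uracils had a median of 0.06 (quartiles -0.69 and 0.96). Ythdf1, Ythdf3 and Zc3h13 are in that class, and so is Rbm15, whose ratio of 3.75 lay far above the upper quartile. Ythdc1, also of that class at 1.01, lay just above that quartile, and Zc3h13 just below the lower one. In the 2362 genes with 15 or fewer uracils, the class of Mettl3, the median was -0.97, and in the 2980 with 16 to 18, that of Mettl14, it was -0.64. Over 10990 coding genes Spearman's rho between the window's uracils and the ratio was 0.54 in DMSO, 0.54 in LPS and 0.58 in LPS+TM7nox. For the U share of the whole 3′ UTR, rho was lower, at 0.27, 0.26 and 0.32. By that share the members ranked otherwise. Wtap (percentile 99.4), Ythdc1 (98.3), Ythdf3 (97.3), Ythdf1 (88.4) and Rbm15 (84.7) stood above Ythdf2 (76.1) and Alkbh5 (73.9). These are descriptions across genes, which share libraries and base composition and are not replicates. The heptamer TTTTTTT occurred, with overlaps counted, 46 times in the 3′ UTR of Ythdf2, 38 in Alkbh5, 32 in Wtap, 9 in Ythdc1 and 5 or fewer in the rest, and was absent from those of Mettl3 and Mettl14. It was searched on the sense strand only and was present in 47.9% of 3′ UTRs. The AU-rich heptamer TATTTAT, present in 32.7%, occurred once each in Rbm15, Ythdf2, Ythdf3 and Ythdc1 and in no other member. A match is a description of the letters and not a binding site.

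**Figure D3:**
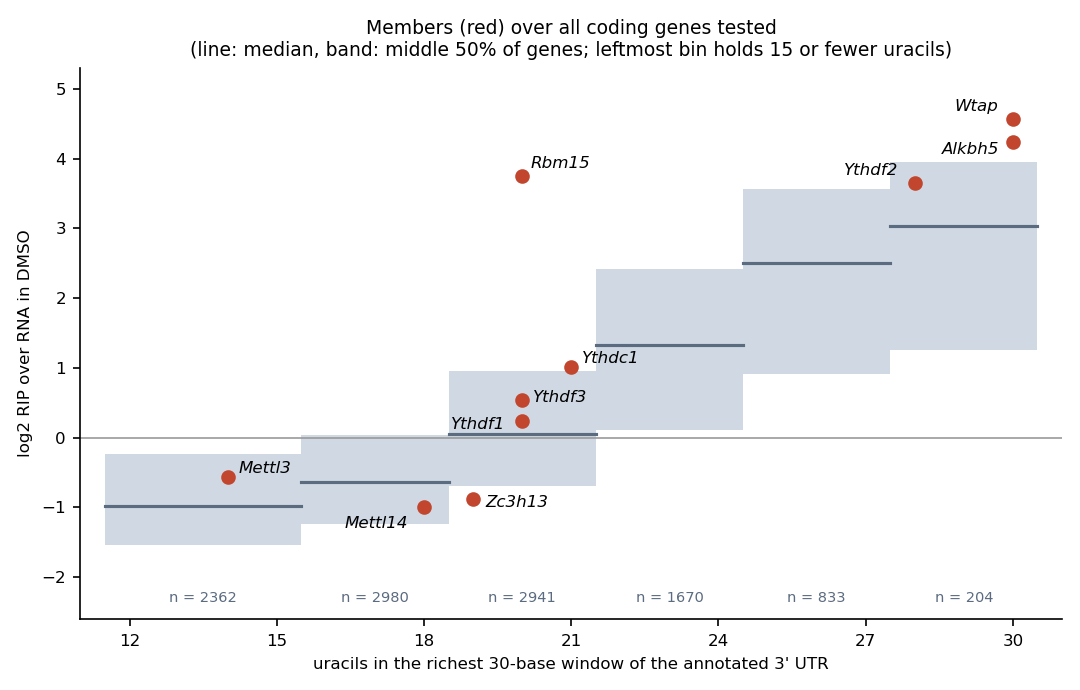
Log2 RIP over RNA in DMSO against the number of uracils in the richest 30-base window of the annotated 3′ UTR: lines and bands are the median and quartiles of all coding genes tested in each class, and red points are the members. Wtap, Alkbh5 and Ythdf2 lie at the right in the class with a median of 3.04, and Rbm15, at 20 uracils, lies far above the upper quartile of its class.

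Levels were compared between genes only per kilobase of exons. In DMSO RNA, Alkbh5 was highest at 18.2 CPM per kb, followed by Ythdf2 at 12.5 and Ythdf1 at 11.6, whose libraries overlapped each other. Wtap (6.94) and Zc3h13 (6.88) did not differ beyond their spread, nor did Rbm15 (5.47) and Ythdc1 (4.21), or Ythdc1 and Ythdf3 (3.88), while Rbm15 and Ythdf3 did not overlap. The catalytic pair was lowest, Mettl14 at 2.01 and Mettl3 at 1.36 CPM per kb, without overlap between them on this length. In LPS RNA, Ythdf1 led at 21.1, above Alkbh5 at 15.5 and Ythdf2 at 12.5 with no overlap. In LPS+TM7nox, Ythdf1 (18.04) and Alkbh5 (17.5) overlapped. In DMSO RIP the order was Alkbh5 at 313 CPM per kb, Wtap at 152, Ythdf2 at 144 and Rbm15 at 67.6, with Wtap and Ythdf2 overlapping, and all other members were at or below 12.6. The order depends on the length used, as for Wtap, whose longest transcript is 3593 bases against 7906 bases of all exons. With the longest transcript, Wtap stood second in DMSO RNA at 15.3 CPM per kb and first in DMSO RIP at 333. In DMSO RNA, the means of Ythdc1 (9.75) and Ythdf3 (8.53) then stood above those of Zc3h13 (8.07) and Rbm15 (7.50), and Mettl3 (2.34) above Mettl14 (2.29). On this length the libraries of Mettl3 and Mettl14 overlapped, as did those of Ythdf3 with Zc3h13 and Rbm15, and of Ythdc1 with Zc3h13. Wtap overlapped Ythdf2 in DMSO RNA and Alkbh5 in DMSO RIP.

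LPS raised the mRNAs of 2 readers and lowered that of 1 writer subunit in total RNA. The cytoplasmic reader Ythdf1 rose 1.75-fold and the nuclear reader Ythdc1 1.31-fold, and Mettl14 fell to 0.731 of its DMSO level. These 3 calls by edgeR stand beside 42.0% of 12369 genes called (20.2% higher and 21.7% lower), and the median log2 fold change was -0.09 for the members and -0.04 for all genes. Ythdf1 read 41.3, 44.7, 35.5 and 36.4 CPM in DMSO and 72.9, 84.0, 64.9 and 65.0 CPM in LPS. Each LPS library was above each DMSO library, at means of 39.5 ± 4.32 and 71.7 ± 9.02 CPM (SD, n = 4 each), and edgeR's log2 fold change was 0.80 (SE 0.145, FDR 0.000464). It was 0.84 in replicates 1 and 2 alone (FDR 0.0300) and 0.84 in replicates 3 and 4 alone (FDR 1.36e-05).

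Ythdc1 read 69.8, 61.8, 51.8 and 62.9 CPM in DMSO and 92.0, 86.7, 74.5 and 81.3 CPM in LPS, also without overlap. Its log2 fold change was 0.39 (SE 0.131, FDR 0.0284), and the call was lost when RNA LPS replicate 1 or 2 or RNA DMSO replicate 2, 3 or 4 was left out (FDR 0.0535 to 0.0937). In replicates 1 and 2 alone its log2 fold change was 0.42 (FDR 0.279) and in replicates 3 and 4 alone 0.43 (FDR 0.00492). Mettl14 read 19.04, 16.2, 15.4 and 17.0 CPM in DMSO and 16.7, 11.5, 10.9 and 11.9 CPM in LPS. LPS replicate 1 stood apart from the other 3 LPS libraries and inside the DMSO range. The log2 fold change of Mettl14 was -0.45 (SE 0.157, FDR 0.0325), with an FDR of 0.0539 with RLE scaling, 0.187 without the filter on low counts and 0.538 in replicates 1 and 2 alone. It was lost without RNA DMSO replicate 1, 2 or 4, without RNA LPS replicate 2, 3 or 4 and without RNA LPS+TM7nox replicate 1 (FDR 0.0510 to 0.104).

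The other 7 members were not called in RNA by LPS. Alkbh5 read 124, 105, 115 and 116 CPM in DMSO and 116, 99.9, 86.6 and 88.8 CPM in LPS, where replicate 1 was the highest of its group. Its log2 fold change was -0.29 (SE 0.126, FDR 0.0834), and it was called lower with the replicate block (FDR 0.0234), in replicates 3 and 4 alone (FDR 0.00412) and without RNA LPS replicate 1 (FDR 0.0181). The log2 fold changes of the remaining members were -0.23 for Mettl3, -0.20 for Zc3h13, -0.13 for Rbm15, -0.05 for Ythdf2, 0.08 for Wtap and 0.10 for Ythdf3, with FDRs from 0.230 to 0.746. The catalytic subunit Mettl3, for one, read 6.90, 8.54, 9.03 and 7.60 CPM in LPS, with 2 libraries inside its DMSO range and 2 below it.

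In RIP, LPS raised Ythdf1 and Wtap and lowered Mettl14, beside 44.7% of 13614 genes called (23.5% higher and 21.2% lower). Ythdf1 read 47.2, 41.9, 44.9 and 37.1 CPM in DMSO and 97.0, 98.5, 92.2 and 74.5 CPM in LPS, a log2 fold change of 1.05 (SE 0.161, FDR 7.46e-05) with no overlap. Wtap rose from a mean of 1198 ± 117 to 1876 ± 246 CPM (SD, n = 4 each), and its libraries in LPS, 1734, 1962, 2180.4 and 1629 CPM, all lay above those in DMSO. Its level in RNA was 53.2, 65.1, 59.3 and 63.4 CPM in LPS, overlapping that in DMSO. The log2 fold change of Wtap in RIP was 0.61 (SE 0.187, FDR 0.0143). That call was lost without the filter on low counts (FDR 0.0766), without RIP DMSO replicate 2, 3 or 4 or RIP LPS replicate 3 (FDR 0.0517 to 0.0671) and in either pair of replicate numbers alone, where the log2 fold change was 0.57 (FDR 0.238) and 0.57 (FDR 0.129). Mettl14 read 7.23, 7.64, 8.42 and 7.58 CPM in DMSO RIP and 5.57, 4.195, 5.86 and 5.37 CPM in LPS RIP, a log2 fold change of -0.59 (SE 0.185, FDR 0.0169) without overlap. It too was lost without the filter (FDR 0.0955) and within each pair of numbers (FDR 0.0783 and 0.102). Ythdc1 had a log2 fold change of 0.34 (FDR 0.116) and was called higher with the replicate block (FDR 0.0354) and without RIP LPS replicate 4 (FDR 0.0422). The other 6 were not called, with log2 fold changes for Alkbh5 (-0.40), Zc3h13 (-0.25), Mettl3 (-0.18), Rbm15 (-0.14), Ythdf3 (-0.04) and Ythdf2 (0.35).

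**Figure D4:**
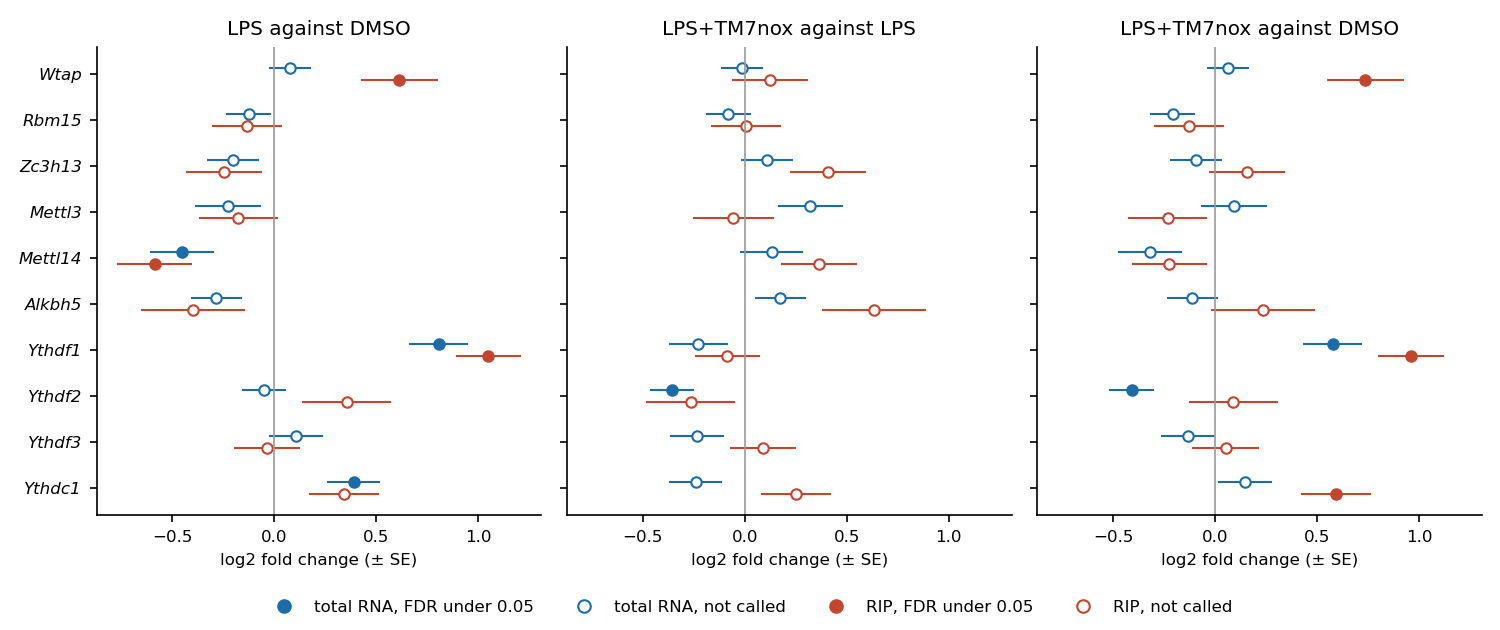
Log2 fold change of each member, with its standard error, in total RNA (blue) and anti-HuR RIP (red) for LPS against DMSO, LPS+TM7nox against LPS and LPS+TM7nox against DMSO, with filled points called at an edgeR FDR under 0.05. Ythdf1 is filled in both assays in the 2 comparisons with DMSO, Wtap is filled in RIP only, and Ythdf2 in RNA is the 1 filled point of LPS+TM7nox against LPS.

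Adding TM7nox to LPS lowered 1 member in total RNA. Ythdf2, the reader tied to mRNA decay, read 78.6, 78.6, 77.4 and 69.8 CPM in LPS and 60.2, 63.4, 60.9 and 53.1 CPM in LPS+TM7nox, with each LPS+TM7nox library below each LPS library. The means were 76.1 ± 4.21 and 59.4 ± 4.40 CPM (SD, n = 4 each), with an edgeR log2 difference of -0.36 (SE 0.109, FDR 0.0418), beside 13.8% of genes called (7.37% higher and 6.40% lower). The call was lost in 9 of 12 leave-one-out fits (FDR 0.0509 to 0.133), all except those without RNA DMSO replicate 1 or 4 or RNA LPS replicate 4, while the log2 fold change stayed between -0.41 and -0.31. Without the filter on low counts the FDR was 0.246. The log2 difference was -0.35 in replicates 1 and 2 alone (FDR 0.547) and -0.35 in replicates 3 and 4 alone (FDR 0.0254). Ythdf1 read 59.4, 75.4, 57.7 and 52.5 CPM in LPS+TM7nox, a log2 fold change of -0.23 (SE 0.143, FDR 0.352) from LPS, and was called lower with the replicate block (FDR 0.0410). Ythdf3 and Mettl3 had groups that did not overlap, with log2 fold changes of -0.24 (FDR 0.289) and 0.32 (FDR 0.224), and were not called. The log2 fold changes of the other members were those of Ythdc1 (-0.24), Rbm15 (-0.08), Wtap (-0.01), Zc3h13 (0.11), Mettl14 (0.13) and Alkbh5 (0.17).

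In RIP, 0 of 10 members were called for LPS+TM7nox against LPS by edgeR or by DESeq2, beside 16.2% of all genes by edgeR (8.64% higher and 7.61% lower). At an unadjusted p under 0.05 there were 2, Alkbh5 and Zc3h13. Alkbh5 read 1278, 1935, 1442 and 1496 CPM in LPS and 1637, 2972, 1673 and 2846 CPM in LPS+TM7nox, a log2 difference of 0.63 (SE 0.256, unadjusted p = 0.0250 and FDR 0.103 by edgeR). Zc3h13 read 24.5, 21.6, 31.8 and 31.4 CPM in LPS and 32.0, 29.6, 42.3 and 36.2 CPM in LPS+TM7nox, a log2 difference of 0.41 (SE 0.186, unadjusted p = 0.0442 and FDR 0.150 by edgeR). The groups overlapped for both, since replicates 3 and 4 of Zc3h13 were high in either treatment and Alkbh5 was high in replicate 2 of either. With the replicate block, which removes such shared offsets, both were called higher, at an FDR of 0.0184 for Alkbh5 and 0.00952 for Zc3h13. The log2 differences of the other members were those of Ythdf2 (-0.26), Ythdf1 (-0.09), Mettl3 (-0.06), Rbm15 (0.01), Ythdf3 (0.09), Wtap (0.12), Ythdc1 (0.25) and Mettl14 (0.36).

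Against DMSO, cells given LPS+TM7nox had a higher Ythdf1 and a lower Ythdf2 in RNA, beside 47.3% of genes called (23.7% higher and 23.6% lower). Ythdf1 differed by 0.58 (SE 0.145, FDR 0.00455) on the log2 scale and Ythdf2 by -0.41 (SE 0.109, FDR 0.00676), both without overlap. Both were lost in replicates 1 and 2 alone (FDR 0.0779 and 0.203), and Ythdf2 without the filter on low counts (FDR 0.132). With the replicate block Mettl14 (log2 -0.32 without it) and Rbm15 (-0.21) were also called lower, at FDRs of 0.0415 and 0.0405. In RIP, where 48.1% of genes were called (25.1% higher and 23.1% lower), Ythdf1 (0.96, SE 0.161, FDR 0.000143), Wtap (0.74, SE 0.187, FDR 0.00420) and Ythdc1 (0.59, SE 0.171, FDR 0.00952) were higher. All 3 had groups that did not overlap. Ythdc1 read 101, 115, 129.6 and 107 CPM in DMSO RIP and 159, 200.5, 191 and 133 CPM in LPS+TM7nox RIP. In the single IgG libraries of DMSO and LPS+TM7nox, Ythdc1 read 59.1 and 93.5 CPM, Ythdf1 41.5 and 60.8 CPM and Wtap 41.1 and 36.8 CPM. In either pair of replicate numbers alone, Wtap and Ythdc1 were not called (FDR 0.0549 to 0.161). The members not called against DMSO by either fit had log2 differences in RNA for Ythdf3 (-0.13), Alkbh5 (-0.11), Zc3h13 (-0.09), Wtap (0.07), Mettl3 (0.09) and Ythdc1 (0.15). Those not called in RIP had log2 differences for Mettl3 (-0.23), Mettl14 (-0.22), Rbm15 (-0.13), Ythdf3 (0.05), Ythdf2 (0.09), Zc3h13 (0.16) and Alkbh5 (0.24). The comparisons share their DMSO and LPS libraries and are given side by side only.

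Whether treatment changed HuR recovery beyond the change in RNA was tested as an interaction in one edgeR fit of the 24 RNA and RIP libraries. For LPS, 0 of 10 members were called, 0 had an unadjusted p under 0.05, and DESeq2 called 0. Of all 14311 genes, 6 (0.0419%) were called, 0.0140% higher and 0.0280% lower. The member with the largest difference was Wtap, whose log2 RIP over RNA within same-numbered pairs was 4.63, 4.32, 4.603 and 4.23 in DMSO and 5.03, 4.91, 5.20 and 4.68 in LPS. These pairs did not overlap, and the log2 difference was 0.41 (SE 0.219, unadjusted p = 0.0725 and FDR 0.728 by edgeR). The log2 differences of the other members were those of Ythdf3 (-0.27), Mettl14 (-0.25), Alkbh5 (-0.23), Zc3h13 (-0.18), Ythdc1 (-0.18), Rbm15 (-0.12), Mettl3 (-0.07), Ythdf1 (0.12) and Ythdf2 (0.28), with SEs of 0.202 to 0.294.

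For TM7nox, 0 of 10 members were called by edgeR or DESeq2, beside 1 of 14311 genes (0.00699%) by edgeR. Ythdc1 was the 1 member with an unadjusted p under 0.05. Its log2 RIP over RNA was 0.67, 0.83, 1.28 and 0.37 in LPS and 1.33, 1.28, 1.42 and 1.01 in LPS+TM7nox. These ranges overlapped, though each replicate number was higher in LPS+TM7nox, and 0 of 31 alternative settings called the change. The log2 difference was 0.51 (SE 0.205, unadjusted p = 0.0210 and FDR 0.871 by edgeR). In the single IgG libraries, Ythdc1 stood at 0.965 times its mean RNA level in LPS and 1.32 times in LPS+TM7nox. Its mean RIP level was 1.82 and 1.83 times the IgG level. Whether the difference is particular to the anti-HuR antibody was not tested. Alkbh5 had 3.46, 4.28, 4.06 and 4.07 in LPS and 3.94, 4.64, 4.06 and 4.62 in LPS+TM7nox, a difference of 0.47 (SE 0.294, FDR 0.871). For Wtap the difference was 0.16 (SE 0.219), for Rbm15 0.10 (SE 0.224) and for Ythdf2 0.11 (SE 0.243). The remaining differences were those of Mettl3 (-0.36), Ythdf1 (0.16), Mettl14 (0.24), Zc3h13 (0.31) and Ythdf3 (0.33). None of the 4 most recovered members was called lower in HuR recovery under TM7nox, where 0 of all 14311 genes were called lower. The ratio is relative to the typical gene, so a loss shared by all mRNAs would not show. A p that misses the threshold does not show that recovery was equal.

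Of 17 other m6A pathway genes, 16 could be tested in RIP over RNA, and in DMSO 6 were higher and 5 lower, close to the 37.0% and 33.4% of all genes. Their median log2 ratio was 0.12. Fmr1, which encodes the fragile X RNA-binding protein, had a log2 ratio of 3.43 (SE 0.220, FDR 6.44e-13), and Rbm15b, the paralogue of Rbm15, had 2.82 (SE 0.296, FDR 6.23e-09). Igf2bp2 (2.26), Ythdc2 (1.31), Hnrnpc (0.76) and Mettl16 (0.46) were the other higher genes. Mettl5 (-1.43), the eraser Fto (-1.32), the writer scaffold Virma (-1.11), Hnrnpa2b1 (-0.52) and Prrc2a (-0.36) were lower. Recovery thus differed within protein groups: the erasers Alkbh5 and Fto lay on opposite sides, as did the writer subunits Wtap and Virma. In LPS 6 were higher (32.9% of all genes), Fmr1 (3.64), Rbm15b (2.56), Igf2bp2 (2.31), Igf2bp3, Ythdc2 (1.42) and Hnrnpc (1.15), and 6 lower (30.8%), Mettl5 (-1.23), Virma (-1.09), Hnrnpa2b1 (-0.91), Fto (-0.90), Rbmx (-0.66) and Cbll1 (-0.60). In LPS+TM7nox 5 were higher (35.2%), Fmr1 (4.14), Rbm15b (3.01), Igf2bp2 (2.77), Hnrnpc (2.24) and Ythdc2 (2.10), and 8 lower (34.8%), Mettl5 (-1.48), Fto (-1.19), Virma (-0.92), Cbll1 (-0.77), Hnrnpa2b1 (-0.71), Prrc2a (-0.45), Pcif1 (-0.43) and Mettl16 (-0.27). The medians were -0.18 and -0.27. Against IgG 5 were higher (33.8%), Fmr1 (3.64), Rbm15b (2.68), Igf2bp2 (2.67), Hnrnpc (1.13) and Ythdc2 (0.75), and 7 lower (34.2%), Virma (-1.82), Fto (-1.55), Mettl5 (-1.12), Hnrnpa2b1 (-0.79), Cbll1 (-0.75), Zcchc4 (-0.45) and Prrc2a (-0.37). In the interactions 0 were called. The Igf2bp3 call rests on 0 to 3 counts per library in LPS RNA and 2 to 8 in LPS RIP, so no fold is given for it. Virma was lower although its richest window held 22 uracils. The other tested genes of this list with at least 22 were higher in DMSO: Mettl16 (25), Rbm15b (24), Igf2bp2 (23), Ythdc2 (23) and Fmr1 (22). Igf2bp1 was at 10 counts or fewer in every library and was not tested.

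In total RNA, LPS raised 3 of the 15 other pathway genes tested there and lowered 3, near the 20.2% and 21.7% of all genes. Igf2bp2, a reader described as stabilising marked mRNA, read 48.8, 51.5, 36.9 and 35.2 CPM in DMSO and 181, 175, 207 and 179 CPM in LPS, and its log2 fold change, 2.05 (SE 0.145, FDR 8.67e-08), was the largest of the list. Fmr1 (0.60, SE 0.120, FDR 0.00104) and Prrc2a (0.38, SE 0.113, FDR 0.0145) also rose. The eraser Fto fell, from 30.2, 23.1, 25.3 and 26.6 CPM to 17.0, 16.2, 12.7 and 14.6 CPM, by a log2 fold change of -0.84 (SE 0.154, FDR 0.000498). Ythdc2 (-0.63, SE 0.209, FDR 0.0262) and the cap methyltransferase Pcif1 (-0.54, SE 0.179, FDR 0.0257) fell as well. With TM7nox added to LPS, where 7.37% of all genes were higher and 6.40% lower, Igf2bp2 rose further (0.45, SE 0.139, FDR 0.0434), and Prrc2a (-0.67, SE 0.113, FDR 0.00138) and Fmr1 (-0.40, SE 0.119, FDR 0.0376) fell. Against DMSO (23.7% of all genes higher and 23.6% lower), 3 were higher in LPS+TM7nox RNA, Igf2bp2 (2.50), Cbll1 (0.68) and Zcchc4 (0.66), and Fto (-0.79) and Ythdc2 (-1.03) were lower. In RIP, LPS raised 4 of 16 (23.5% of all genes), Igf2bp2 (2.24), Fmr1 (0.93), Hnrnpc (0.67) and Prrc2a (0.53), and lowered 2 (21.2%), Rbmx (-0.52) and Mettl16 (-0.51). LPS+TM7nox against DMSO in RIP gave 4 higher (25.1%), Igf2bp2 (3.12), Hnrnpc (1.49), Fmr1 (1.01) and Zcchc4 (0.47), and 4 lower (23.1%), Rbmx (-0.59), Fto (-0.56), Pcif1 (-0.48) and Mettl16 (-0.44). With TM7nox added to LPS, the 2 that rose in RIP (8.64% of all genes) were Igf2bp2 (0.89, SE 0.228, FDR 0.0144) and Hnrnpc (0.82, SE 0.170, FDR 0.00417), and Prrc2a (-0.80, SE 0.185, FDR 0.00821) fell (7.61%).

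The genes whose levels most resembled those of Ythdf1, the member with the largest change by LPS, were found by Pearson's r of log2 CPM over the 12 RNA libraries among 8617 genes. They were Necap1 (0.983), Lasp1 (0.977), Mcl1 (0.975), Zeb2 (0.973) and Fam241a (0.970). The points fall into treatment groups, and the log2 fold changes by LPS were 0.76 for Necap1, 0.88 for Lasp1, 0.84 for Mcl1, 1.30 for Zeb2 and 2.74 for Fam241a. With TM7nox added to LPS, the log2 differences of these 5 genes were -0.26, -0.27, -0.29, -0.29 and -0.90, beside -0.23 for Ythdf1.

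In GRCm39, the writer genes are Mettl3 (ENSMUSG00000022160) on chromosome 14 from 52531551 to 52542608, Mettl14 (ENSMUSG00000028114) on chromosome 3 from 123154348 to 123179757, Wtap (ENSMUSG00000060475) on chromosome 17 from 13184295 to 13213056, Zc3h13 (ENSMUSG00000022000) on chromosome 14 from 75521730 to 75583396 and Rbm15 (ENSMUSG00000048109) on chromosome 3 from 107229104 to 107241289. The eraser is Alkbh5 (ENSMUSG00000042650) on chromosome 11 from 60427207 to 60449346. The readers are Ythdf1 (ENSMUSG00000038848) on chromosome 2 from 180546165 to 180562815, Ythdf2 (ENSMUSG00000040025) on chromosome 4 from 131911065 to 131939614, Ythdf3 (ENSMUSG00000047213) on chromosome 3 from 16237297 to 16271201 and Ythdc1 (ENSMUSG00000035851) on chromosome 5 from 86951957 to 86985080. Exons of other genes on the opposite strand cover 34.1% of the exonic bases of Mettl3 (Tox4) and 15.1% of those of Rbm15 (Gm65068), and no single overlap of another member, on either strand, covers more than 4.32%. Alkbh5, Zc3h13, Ythdf1 and Ythdf2 have no exonic overlap. Whether counting used the strand is not given in the sources used here, so reads of Mettl3 and Tox4 in the shared stretch could not be told apart.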

How the data were processed

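The deposited table holds raw read counts per gene and library, 55483 genes by 27 libraries, made by the authors. The submitters' processing notes name FastQC 0.11.9, STAR, HTSeq, DESeq2 and GRCm39 without roles. Per the labels' protocols the libraries were stranded. The sources used here do not state the annotation release or strand setting of the counting. The members and gene lists were chosen with earlier results of these data known. All members are named in every comparison, and 17 other pathway genes are counted and named where called.

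Counts were tested with edgeR 4.0.16 (R 4.3.3) by the quasi-likelihood F-test with TMM scaling, a minimum count of 10 (filterByExpr) and Benjamini-Hochberg adjustment over all genes tested, at an FDR under 0.05. RNA and RIP libraries were fitted separately for treatment effects and together for RIP over RNA and its changes. The fits were tested on simulated counts. Alternatives were RLE scaling, DESeq2 1.42.0, no filter, a replicate block, pairs of replicate numbers and leaving out each library. Same-numbered libraries deviated together in 12 of 12 pairs within RNA (r 0.143 to 0.365) and 12 of 12 within RIP (r 0.223 to 0.507). The block is therefore given where it changes the call of a member. Calls of the other pathway genes were not followed under the alternatives. Replicates differed beyond sampling noise (chi-square per gene 38.0 to 213 over 36 pairs). 3′ UTRs are those of Ensembl canonical transcripts in GENCODE M39, to which 93.2% of gene identifiers matched.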

Additional observations from a re-analysis of the deposited data

Results flagged for a closer look

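Of 60 groups of 4 libraries (10 members, RNA and RIP, 3 treatments), 4 held a library whose gap to its nearest neighbour exceeded the 95% critical value of Dixon's test, and chance gives about 1 in 20. Mettl3 in RNA DMSO replicate 1, the shallowest library, read 11.5553 CPM, while the other 3 lay between 8.13 and 8.62 CPM. Mettl3 in RNA LPS+TM7nox replicate 3 read 11.1896 CPM, beside 9.51 to 9.80 CPM in the others. Ythdf2 in RNA LPS replicate 4 read 69.8443 CPM, beside 77.4 to 78.6 CPM. Wtap in RIP LPS+TM7nox replicate 2 read 2763.78 CPM, beside 1668 to 1780.3 CPM.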

How the results depend on the processing

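Of 2830 alternatives to the 120 results of single members, 2749 kept their call or lack of one, 60 lost a call and 21 gained one. Direction was followed in these counts for called members only, of which 0 reversed. For members not called it was followed under RLE scaling, where Ythdf3 in RIP against IgG turned from -0.04 to 0.08. The number of members called in RNA for LPS against DMSO was 3, and 1 in replicates 1 and 2 alone and 1 to 3 with a library left out. With the replicate block, and in replicates 3 and 4 alone, 2 were called higher and 2 lower. With RLE scaling, and without the filter, 2 were called higher and 0 lower. For LPS+TM7nox against LPS in RNA the number was 1, and 0 without the filter, 2 with the replicate block, 0 in replicates 1 and 2, 2 in replicates 3 and 4 and 0 to 1 with a library left out. For LPS+TM7nox against DMSO in RNA it was 2, and 1 without the filter, 4 with the replicate block and 0 in replicates 1 and 2. In RIP for LPS against DMSO it was 3, and 1 without the filter, 1 in either pair of numbers and 2 to 4 with a library left out. With the replicate block, 3 members were called higher there and 1 lower. For LPS+TM7nox against LPS in RIP the number called was 0, and 2 with the replicate block. For LPS+TM7nox against DMSO in RIP it was 3, and 1 in either pair. Pairs of numbers leave fewer libraries, and for the other settings the cause was not tested. Apart from the calls given beside each result, the block changed no other call of a member. A block for each treatment and number together, chosen after seeing the data, called Ythdf3 in RIP over RNA in LPS (FDR 0.0424) and did not call Ythdf1 in DMSO (FDR 0.0533), which the block by number alone did. In RNA, replicates 3 and 4 alone also called Alkbh5 for LPS+TM7nox against LPS (FDR 0.0308) and Ythdc1 against DMSO (FDR 0.0455), and leaving out LPS replicate 1 called Mettl14 for LPS+TM7nox against DMSO (FDR 0.0471).

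Over all genes, LPS+TM7nox against LPS gave 1704 calls in RNA, 3091 with the block, 168 in replicates 1 and 2 and 3489 in replicates 3 and 4, and in RIP 2212, 4577, 789 and 1070. LPS against DMSO in RNA gave 5190 calls, 6481 with the block, 1668 in replicates 1 and 2 and 7349 in replicates 3 and 4. In the same order, LPS+TM7nox against DMSO in RNA gave 5850, 7173, 2246 and 7925. LPS against DMSO in RIP gave 6090, 8073, 3392 and 5537. The change of RIP over RNA by LPS gave 6 calls, 67 by DESeq2, 49 without the filter, 50 with the block, 0 in replicates 1 and 2 and 13 in replicates 3 and 4. That by TM7nox gave 1, 3, 5, 2, 0 and 0 in the same order. IgG rests on 1 library per treatment.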
